A study of Homo sapiens with 3 samples.

Results

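The regions described here are the peaks of histone H2A acetylated at lysine 130 whose summits lie in the outer 5 Mb of the autosomes in UM-UC-3, a human bladder cancer line. A peak was a member when its summit lay within 5 Mb of the start or the end of chromosomes 1 to 22 (hg38), without the starts of chromosomes 13, 14, 15, 21 and 22. This left 39 outer zones, 1 per chromosome arm, and 195 Mb. Of 23975 peaks in the smoke list 1008 were members, and of 27010 peaks in the air list 1215, so 2223 of the 50985 peaks of both lists. DNA bound to chromatin was pulled down with an antibody to the acetylated lysine and sequenced (ChIP-seq) from cells given smoke media (10%, 3 days) and from air-exposed cells, with 1 library each and 1 input, which was not analysed here. The treatment text with the smoke media stands on the air and input samples too, so the groups rest on the treatment labels. Read depth is unknown, since peak lists carry no read totals. Each group is 1 library, so differences lack a replicate check and no test was run. Intervals are 95% intervals, exact Poisson or binomial for densities and their ratios and Wilson for shares, and cover counting error only.

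Chromosomes end in telomeres, arrays of the repeat TTAGGG bound by a protective protein complex. Next to them lie subtelomeres, which hold blocks duplicated between chromosomes, among them olfactory receptor genes, and further in many human arms carry gene-dense, GC-rich chromatin. Histone H2A is a core protein of the nucleosome, and acetylation of a lysine removes its positive charge. Chromosome ends also carry genes of interest in bladder cancer and smoke exposure, such as the telomerase gene TERT, the receptor gene FGFR3 and the aryl hydrocarbon receptor repressor gene AHRR.

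Few promoter windows of the outer zones met a peak. Of 4175 RefSeq promoter windows (GRCh38.p14, 250 bases before to 50 after the start) in the outer zones, 6 overlapped a smoke peak and 6 an air peak, together 0.287%, against 0.749% of 29502 inner windows with a peak of either list. These are shares of windows, and the share of peaks at a start site was not computed. The 12 outer windows stand beside 2223 outer peaks, and the 221 inner windows beside 47451 inner peaks. The 6 windows with the highest −log10 q of the caller are shown, since they place members on known sequence. Capitals mark the bases under the peak, and each window reads 5′ to 3′ on the gene's strand.
NPLOC4: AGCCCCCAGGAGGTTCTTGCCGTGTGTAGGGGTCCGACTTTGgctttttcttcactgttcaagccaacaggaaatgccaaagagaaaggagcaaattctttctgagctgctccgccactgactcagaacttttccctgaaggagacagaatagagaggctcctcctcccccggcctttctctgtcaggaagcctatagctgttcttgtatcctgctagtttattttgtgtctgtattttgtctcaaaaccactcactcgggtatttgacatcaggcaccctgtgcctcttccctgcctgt
LINC03066: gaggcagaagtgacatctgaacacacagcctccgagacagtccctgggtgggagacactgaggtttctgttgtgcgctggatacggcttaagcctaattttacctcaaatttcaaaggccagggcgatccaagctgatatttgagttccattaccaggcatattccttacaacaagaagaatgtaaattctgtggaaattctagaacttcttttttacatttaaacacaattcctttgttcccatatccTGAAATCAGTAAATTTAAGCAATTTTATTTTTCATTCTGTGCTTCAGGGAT
CHL1: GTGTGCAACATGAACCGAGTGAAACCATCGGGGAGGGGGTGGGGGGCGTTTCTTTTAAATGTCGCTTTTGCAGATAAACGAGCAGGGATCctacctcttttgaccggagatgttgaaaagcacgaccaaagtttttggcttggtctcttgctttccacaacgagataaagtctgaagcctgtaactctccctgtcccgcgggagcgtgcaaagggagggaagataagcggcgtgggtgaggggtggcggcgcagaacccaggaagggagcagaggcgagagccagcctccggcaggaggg
LINS1: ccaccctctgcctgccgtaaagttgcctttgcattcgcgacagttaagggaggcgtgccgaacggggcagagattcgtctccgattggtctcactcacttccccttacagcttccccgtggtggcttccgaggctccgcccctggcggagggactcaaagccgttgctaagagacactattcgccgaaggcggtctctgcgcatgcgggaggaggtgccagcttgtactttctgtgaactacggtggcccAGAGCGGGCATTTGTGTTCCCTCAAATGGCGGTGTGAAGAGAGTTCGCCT
TRIML1: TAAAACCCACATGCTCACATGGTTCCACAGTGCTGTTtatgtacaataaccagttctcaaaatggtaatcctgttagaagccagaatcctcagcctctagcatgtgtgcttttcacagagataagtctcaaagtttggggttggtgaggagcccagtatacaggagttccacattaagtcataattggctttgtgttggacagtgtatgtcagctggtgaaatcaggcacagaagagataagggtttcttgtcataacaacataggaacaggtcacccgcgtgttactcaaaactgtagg
LOC105372697: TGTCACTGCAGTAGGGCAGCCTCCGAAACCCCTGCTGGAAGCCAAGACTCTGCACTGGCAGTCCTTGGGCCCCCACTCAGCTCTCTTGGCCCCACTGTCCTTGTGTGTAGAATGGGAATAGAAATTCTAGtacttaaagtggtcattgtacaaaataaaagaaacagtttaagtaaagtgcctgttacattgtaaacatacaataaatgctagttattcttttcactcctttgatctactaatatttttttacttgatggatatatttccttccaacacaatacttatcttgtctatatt
NPLOC4 encodes a cofactor that helps the ATPase p97 extract ubiquitinated proteins. Its window (chr17:81566553-81566852, minus strand) met a smoke peak with a fold of 4.88 over 42 bases. LINC03066, a long noncoding RNA gene (chr6:205435-205734, minus strand), met an air peak with a fold of 4.60 over 51 bases. CHL1 encodes a neural cell adhesion molecule of the L1 family, and its window (chr3:196513-196812, plus strand) met an air peak with a fold of 4.69 over 90 bases. LINS1 (chr15:100602135-100602434, minus strand) and TRIML1 (chr4:188139191-188139490, plus strand) met air peaks over 50 and 37 bases. LOC105372697, a long noncoding RNA gene (chr20:60344068-60344367, minus strand), met a smoke peak over 130 bases. In NPLOC4, CHL1, TRIML1 and LOC105372697 the capitals stand at the 5′ end of the window, upstream of the start. In LINC03066 and LINS1 they stand at the 3′ end, where transcription begins. The other 6 windows belonged to LOC105372248, OR1F1, ZMYND11, LINC01937, WNT5B and MYOM1.

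The 12 outer windows under a peak had a lower GC content than outer windows at large. Their median GC content was 50.7%, against 64.7% in the 4163 outer windows without a peak, and the quartiles, 43.3% and 53.8% against 55.3% and 72.7%, did not overlap. They held a median of 7 CG dinucleotides, against 19. Inner windows showed the same order, with a median of 50.7% GC in 221 windows under a peak and 57.7% in 29281 without. The telomere hexamer TTAGGG, searched on both strands, was found in 0 of the 12 and in 7.52% of all 4175 outer windows. This says only that these letters are not in those windows.

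A microRNA hairpin was also touched. Of 237 hairpins in the outer zones, 0 had a smoke peak and 2 an air peak within 1 kb, MIR4746 and MIR1283-2. No share over inner hairpins stands beside these counts, and the split between the libraries was not tested. An air peak with a fold of 4.04 (chr19:53757865-53758269) overlapped MIR1283-2 (chr19:53758232-53758318, plus strand), a member of a large primate microRNA cluster of 19q that is active in placenta. Its mature RNA is shown with the seed, bases 2 to 8, in capitals.
hsa-miR-1283: uCUACAAAggaaagcgcuuucu

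Peaks were sparser in the outer zones than in the inner parts of the same arms, in both libraries. In smoke the outer zones held 5.17 peaks per Mb (4.86 to 5.50) and the inner parts 8.59 (8.48 to 8.70), a ratio of 0.602 (0.564 to 0.641). In air they held 6.23 peaks per Mb (5.89 to 6.59) and the inner parts 9.67 (9.55 to 9.79), a ratio of 0.645 (0.608 to 0.683). The intervals of outer and inner density did not overlap in either library. The outer zones made up 6.98% of the length of the 39 arms and held 4.32% of the 23338 smoke peaks on them (4.07 to 4.59) and 4.61% of the 26336 air peaks (4.37 to 4.87). Of the whole lists, chromosome X and the short acrocentric arms included, they held 4.20% in smoke (3.96 to 4.47) and 4.50% in air (4.26 to 4.75), and the intervals of smoke and air overlap. Covered bases followed the same order, with 1334 bp per Mb outer and 2182 inner in smoke, and 1902 and 2963 in air. The names of both lists hold 1 control code, so smoke and air are not independent in their comparison with the control.

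Density was lowest next to the chromosome end and higher at each step inwards up to 6 Mb. In smoke it was 4.05 peaks per Mb (3.44 to 4.73) in the first Mb, 4.87 in the second, 5.54, 5.62 and 5.77 in the next 3, and 6.74 (5.95 to 7.61) from 5 to 6 Mb. In air the same steps held 5.05 (4.37 to 5.81), 5.33, 6.59, 6.90, 7.28 and 8.23 (7.35 to 9.18). Neighbouring steps had overlapping intervals, but the first and the sixth did not overlap in either library. The 5 Mb border falls within this gradient. From 6 to 20 Mb density lay between 7.21 and 7.63 in smoke and between 8.03 and 8.64 in air, with no such order. It was 8.81 peaks per Mb (8.59 to 9.03) in smoke and 10.1 (9.86 to 10.3) in air at 20 to 40 Mb from the end. Protein-coding genes ran the other way, with 19.2 per Mb in the first Mb, 15.9 in the second and 9.46 in the fifth.

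**Figure D1:**
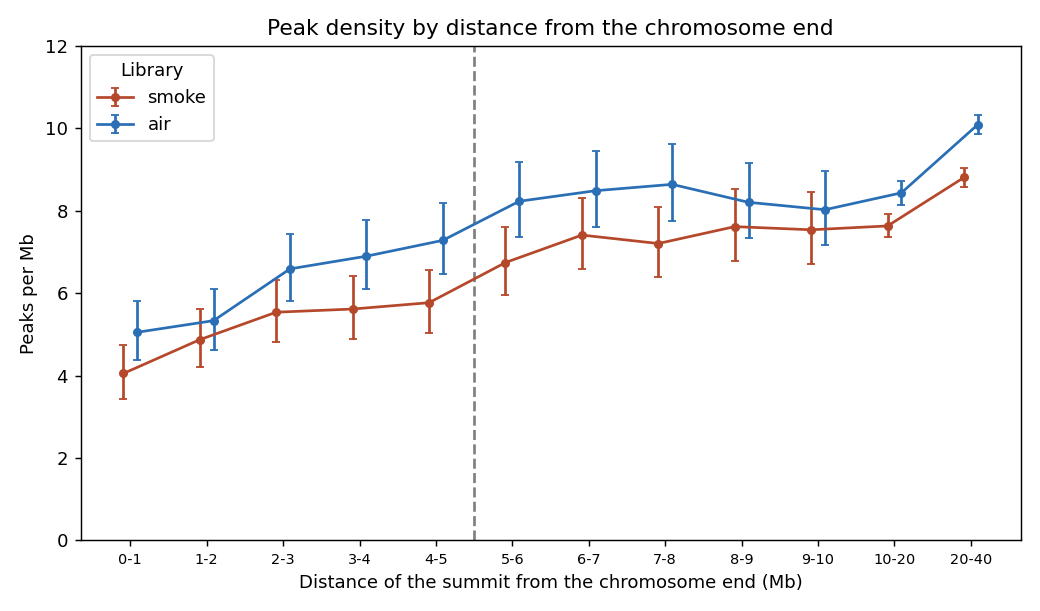
Peaks per Mb (y) by distance of the summit from the chromosome end in Mb (x) for smoke and air, with points for the sum over arms and bars for exact 95% Poisson intervals; the dashed line marks 5 Mb. The points lie lowest in the first Mb, at 4.05 in smoke and 5.05 in air, and highest at 20 to 40 Mb, at 8.81 and 10.1.

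At the very tips peaks were few but present. Within 100 kb of an end lay 8 smoke peaks on 7 arms and 8 air peaks on 6 arms, which is 2.05 per Mb (0.886 to 4.04) in each library. The outermost smoke summit lay 16.3 kb from the end, on 11q, and the outermost air summit 25.7 kb from it, on 13q. The median arm had its outermost summit at 217 kb in smoke and 218 kb in air, and the farthest lay at 1359 kb on 11p in smoke and at 1534 kb on 17q in air. Tips contain assembly gaps and duplicated sequence, and their part in these values was not tested. At the 5 Mb border the last member in smoke lay 9.67 kb inside it on 5p (fold 3.32) and the first peak outside lay 3.72 kb beyond it on 4q (fold 3.76). In air these were 4.02 kb inside on 2q (fold 4.17) and 2.86 kb beyond on 17q (fold 3.58).

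Arms differed widely. Outer density ran from 0.80 to 11.8 peaks per Mb in smoke, with a median of 4.40, and from 1.40 to 14.6 in air, with a median of 5.80. Inner density ran from 4.22 to 12.5 in smoke and from 4.62 to 14.2 in air. The spreads are not comparable, since an outer zone holds far fewer peaks than an inner part and its density has a larger counting error. The outer zone was sparser than the inner part of its own arm on 33 of 39 arms in smoke and on 29 of 39 in air. The interval of the ratio lay wholly under 1 on 23 arms in smoke and 19 in air, and wholly over 1 on 3 and 4 arms. The median ratio over arms was 0.555 (0.142 to 1.81, lowest to highest) in smoke and 0.690 (0.134 to 1.79) in air. On long arms the gap was larger than on short ones, with a ratio of 0.507 (0.463 to 0.554) on 22 q arms and 0.758 (0.691 to 0.829) on 17 p arms in smoke. In air the q arms had 0.585 (0.540 to 0.633) and the p arms 0.755 (0.692 to 0.822).

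The emptiest outer zones were those of 19p, 9q, 1p and 8q. The end of 19p held 4 smoke and 7 air peaks, that of 9q 5 and 8, that of 1p 6 and 14, and that of 8q 12 and 9. The fourth lowest zone in smoke was that of 22q, with 10 peaks, and in air 1p shared its density of 2.80 per Mb with 21q, which had 14 peaks. On 8q the zone held 2.40 smoke peaks per Mb (1.24 to 4.19) against 10.9 in the rest of the arm, and 1.80 air peaks per Mb (0.823 to 3.42) against 13.4. These 4 zones held 40.2, 21.4, 19.2 and 20.8 protein-coding genes per Mb on 19p, 9q, 1p and 8q, against a median of 10.2 over the 39 zones. The zone of 22q held 10.6 and that of 21q 16.2. Other gene-rich zones were fuller. Those of 16p and 19q, with 39.4 and 36.4 genes per Mb, held 3.80 and 4.20 smoke peaks per Mb, beside a median of 4.40. In air they held 4.60 and 6.20, beside a median of 5.80. Of 195 outer 1 Mb bins, 2 had no peak in either list, 1 on 19p and 1 on 8q.

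The fullest outer zones were those of 18p, 9p, 3p, 4q and 1q. On 18p the zone held 59 smoke peaks (11.8 per Mb) and 51 air peaks (10.2 per Mb), with ratios of 1.81 (1.28 to 2.55) and 1.45 (1.01 to 2.06) to the inner part. The end of 1q held 42 smoke and 52 air peaks, with ratios of 1.64 (1.17 to 2.24) and 1.79 (1.32 to 2.38). That of 4q held 50 and 58, with ratios of 1.46 (1.08 to 1.94) and 1.49 (1.13 to 1.94). The end of 3p held 51 smoke and 73 air peaks, and its ratio was 1.24 (0.913 to 1.65) in smoke and 1.70 (1.32 to 2.16) in air. On 9p, with 54 and 64 peaks, the outer zone was as dense as the inner part, at ratios of 1.05 (0.777 to 1.40) and 1.0 (0.759 to 1.3). Gene density was low on 18p, 9p, 3p and 4q, at 4.40, 5.20, 2.60 and 4.20 genes per Mb, but was 14.6 on 1q.

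**Figure D2:**
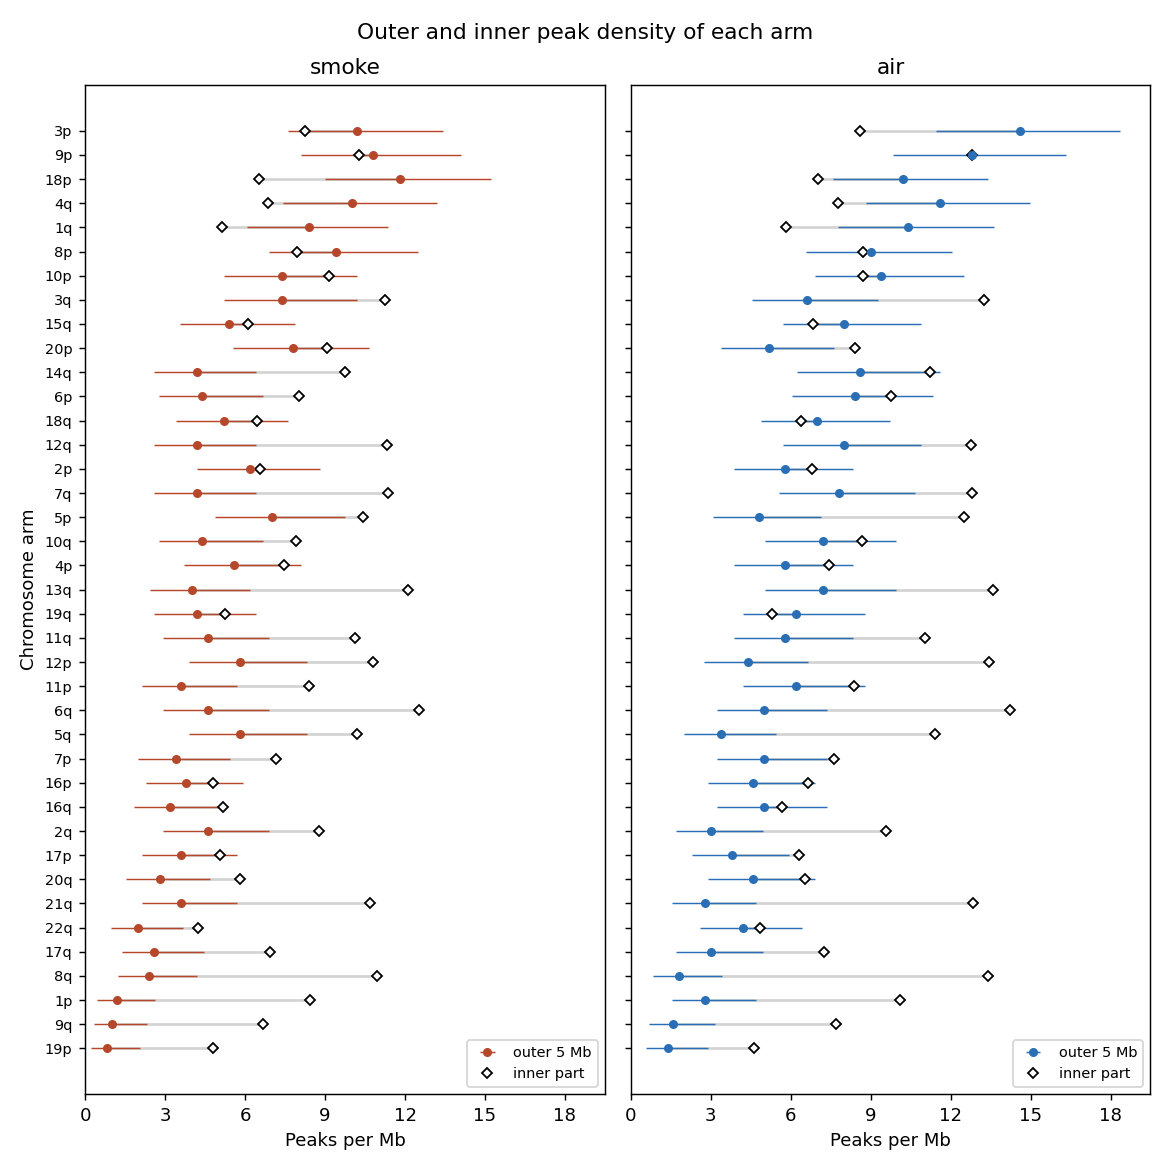
Peaks per Mb (x) in the outer 5 Mb (filled points, bars are exact 95% Poisson intervals) and in the inner part (open diamonds, joined to the points by grey lines) of each of 39 arms (y), smoke on the left and air on the right, ordered by the summed outer density. The filled points lie left of the diamonds on 33 arms in smoke and 29 in air, and farthest right on 18p (11.8) in smoke and 3p (14.6) in air.

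The 8 fullest 1 Mb bins lay on 9p, 3p, 4q, 18p, 1q and 11p. The densest bin of 1 Mb, 3 to 4 Mb from the end of 9p, held 20 smoke and 14 air peaks. It holds RFX3, which encodes a transcription factor of ciliated cells, with 8 smoke and 8 air peaks over the gene or within 1 kb. Next to it GLIS3, a zinc finger gene of pancreatic beta cells and thyroid, had 8 and 15. On 3p the bins from 1 to 2 Mb and from 2 to 3 Mb held 16 and 16, and 11 and 22 peaks. They hold most or all of the contactin genes CNTN6 (9 smoke, 6 air) and CNTN4 (14 smoke, 19 air), which encode neural adhesion proteins. The bin at 4 to 5 Mb of 11p, with 29 genes and an olfactory receptor cluster, held 9 smoke and 17 air peaks. A gene-dense bin was thus among the fullest. The median outer bin held 4 smoke and 5 air peaks, against 8 and 9 in the median inner bin.

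**Figure D3:**
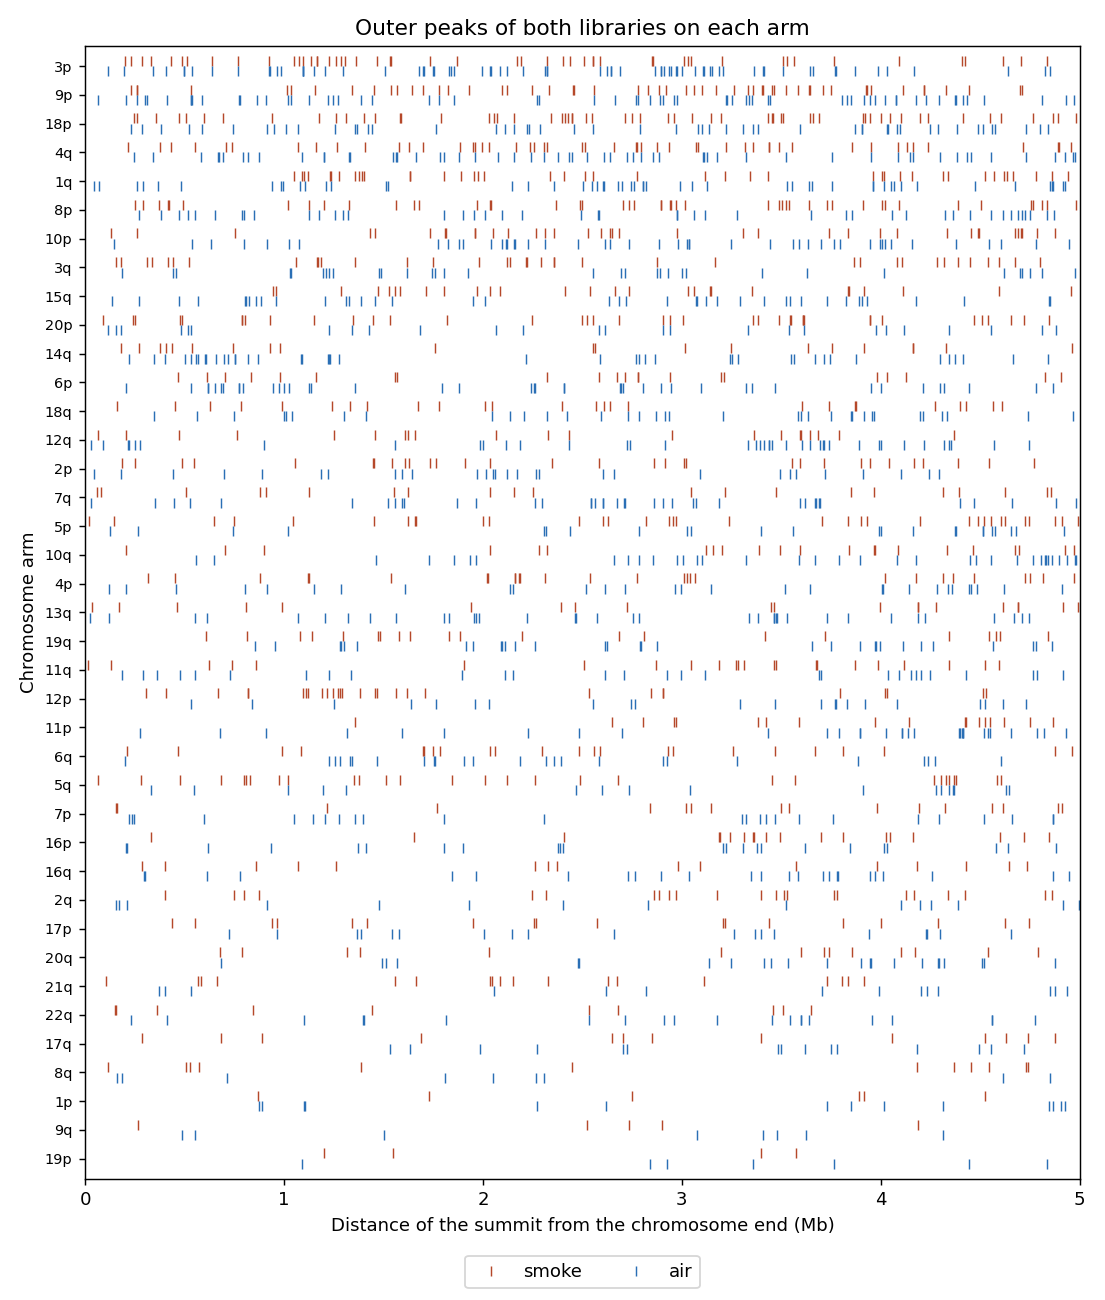
Summits of outer peaks by distance from the chromosome end in Mb (x) on each of 39 arms (y), with a tick per peak for smoke (upper row of an arm) and air (lower row). The arms at the top, 3p with 51 and 73 peaks and 9p with 54 and 64, are filled over most of their length, and 19p at the bottom has 4 and 7.

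The outer zones were split between the libraries much as the inner parts were. Smoke peaks made up 45.3% (43.3 to 47.4) of the 2223 outer peaks and 47.1% (46.6 to 47.5) of the 47451 inner ones. On 4 of 39 arms the 95% interval left out the overall outer share. Among 39 such intervals some would leave it out by counting error alone. On 5q, with 29 smoke and 17 air peaks, the smoke share was 63.0% (48.6 to 75.5). On 20p, with 39 and 26, it was 60.0% (47.9 to 71.0), and on 5p, with 35 and 24, 59.3% (46.6 to 70.9). On 14q, with 21 smoke and 43 air peaks, it was 32.8% (22.6 to 45.0). With 1 library each, these arms were not tested against the spread between cultures.

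Outer zones were gene-rich, and peak density differed with gene density. The outer zones held 12.8 protein-coding genes per Mb, 2498 genes in all, and the inner parts 6.38, 16573 genes. Across the 39 zones, peak density and gene density had a Spearman coefficient of −0.63 in smoke and −0.67 in air. Pearson coefficients of the outer zones were −0.53 and −0.55. The inner parts of the 39 arms had the same sign, with Spearman coefficients of −0.42 in smoke and −0.39 in air. The 39 points share a library and a gene table, and the coefficients are descriptions. Within classes of 1 Mb bins by gene count, the outer zones were sparser in each class with genes. The classes are broad, the highest being 21 genes or more, so gene count was matched only roughly. Bins with 1 to 5 genes held 6.78 smoke peaks per Mb outer (6.15 to 7.45) and 9.84 inner (9.66 to 10.02), and 8.32 air peaks per Mb outer (7.62 to 9.06) and 11.1 inner (10.9 to 11.3). In bins with 11 to 20 genes smoke had 3.69 outer (3.16 to 4.27) and 6.55 inner (6.27 to 6.84), and air 4.67 outer (4.08 to 5.32) and 7.50 inner (7.20 to 7.81). Bins without a gene, of which the outer zones have 8, held 9.25 smoke peaks per Mb outer (7.26 to 11.6) and 9.11 inner, and 11.9 air peaks outer (9.61 to 14.5) and 10.1 inner. Set against inner bins of the same gene classes, the outer zones had 0.669 (0.628 to 0.712) of the smoke peaks and 0.719 (0.679 to 0.760) of the air peaks. Base composition and mappability along the arms were not measured.

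**Figure D4:**
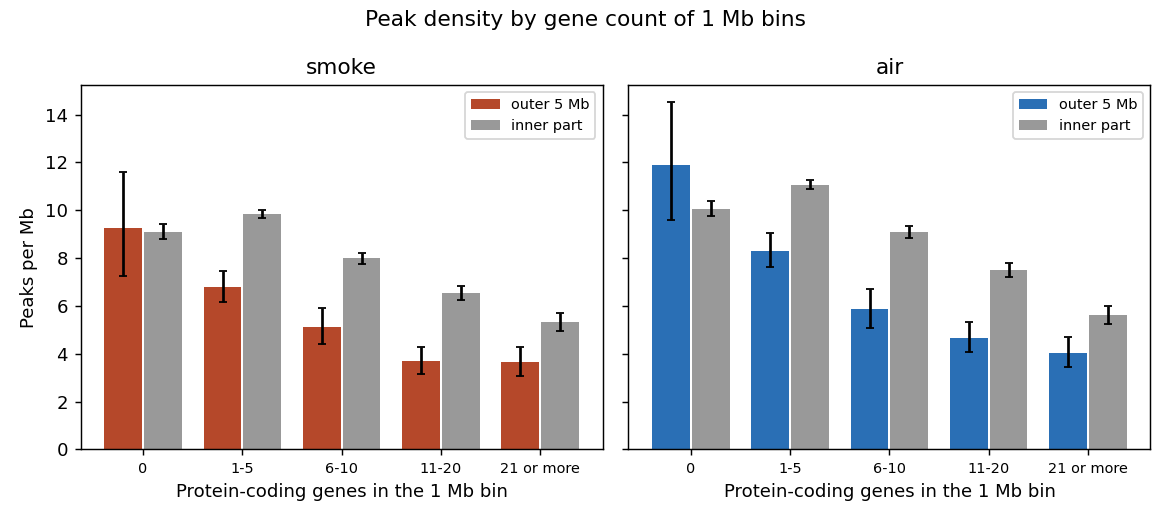
Peaks per Mb (y) in 1 Mb bins of the outer 5 Mb (coloured bars) and the inner part (grey bars) by the number of protein-coding genes in the bin (x), smoke on the left and air on the right, with exact 95% Poisson intervals. Outer bars are lower in every class that holds genes, for example 3.69 against 6.55 in smoke at 11 to 20 genes, and in bins without genes the intervals overlap.

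The strength of outer and inner peaks, as the authors' caller gave it, was alike. The median fold was 3.76 outer and 3.76 inner in smoke, and 3.90 and 3.93 in air. A −log10 q of at least 1.3, which is a q of about 0.05, was reached by 47.0% of outer smoke peaks (44.0 to 50.1) and 44.5% of inner ones (43.8 to 45.1), beside 44.4% of the whole smoke list. In air these shares were 61.2% (58.5 to 63.9) and 60.5% (59.9 to 61.1), beside 60.4% of the whole air list. A fold of at least 5 was reached by 4.46% of outer (3.35 to 5.92) and 5.84% of inner smoke peaks (5.54 to 6.16), beside 5.73% of the list. In air it was reached by 9.30% of outer (7.79 to 11.1) and 9.96% of inner peaks (9.59 to 10.3), beside 9.91% of the list. Median width was 235.5 bp outer and 226 bp inner in smoke, and 274 and 278 bp in air. The interval of each of these 4 outer shares held the inner share.

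The strongest outer smoke peak lay on 9p (chromosome 9, 1156071 to 1156317), 98.6 kb from DMRT2, a DM-domain transcription factor gene. Its fold was 9.13 and its −log10 q 9.74. It was followed by a peak at the tip of 13q (chromosome 13, 114329670 to 114330033), 0.0346 Mb from the chromosome end, whose fold was 6.81 and −log10 q 5.05. That peak lay inside the noncoding RNA gene LINC01054 and 2.45 kb from CHAMP1, which encodes a protein of chromosome alignment in mitosis. Inside FAT1, an atypical cadherin gene mutated in several carcinomas, a smoke peak had a fold of 6.11 (chromosome 4, 186725844 to 186726132). The others of the 10 highest in smoke lay inside DOCK8, C16orf96, CNTN4, HDAC4 and ATP13A3, 15.9 kb from NLRP12 and 2.52 kb from SIRPD. Among these 10, the DOCK8 peak had an air peak 0.535 kb away, and the nearest air peak of the other 9 lay 8.56 to 151 kb away.

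In air the strongest outer peak lay inside DIDO1, a chromatin-binding regulator gene, on 20q (chromosome 20, 62933620 to 62933881). Its fold was 6.37 and its −log10 q 4.55. A peak 0.136 Mb from the end of 15q, 35.1 kb from the olfactory receptor gene OR4F15, had a fold of 6.38. Peaks 99.4 kb from EXOC2 and 349 kb from MYOM2 had this fold too. Others of the 10 highest lay inside CDH4, ANKRD10 and OPA1, 6.64 kb from TAF4 and 23.3 kb from ZBTB42. On 20q alone lay 3 of these 10. The MYOM2 peak had a smoke peak 1.73 kb away, and the nearest smoke peaks of the rest lay 9.99 to 808 kb away.

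Few outer peaks had a partner in the other library. An overlap of at least 1 bp was found for 15 outer smoke peaks, 1.49% (0.904 to 2.44), against 1.62% of inner ones and 1.58% of the whole list. In air it was 15 peaks, 1.23% (0.750 to 2.03), against 1.44% inner and 1.41% of the list. The 15 pairs lay on 13 arms, 3 of them on 3p. The pair with the highest −log10 q in its weaker library lay on 18q, 365 kb from the galanin receptor gene GALR1, with folds of 4.54 in smoke (chromosome 18, 77642978 to 77643358) and 4.69 in air (77643066 to 77643304). Next came a pair inside SMCHD1, a chromatin protein gene of X inactivation and of silencing at the subtelomeric D4Z4 array, with folds of 4.30 and 4.64 (chromosome 18, 2789649 to 2789798 in smoke). A pair inside CNTN6 had folds of 5.37 and 4.06 (chromosome 3, 1093174 to 1093358 in smoke). Other pairs lay inside PTPRA, a receptor phosphatase gene, and NXN, a thioredoxin-like gene, and at up to 324 kb from TAFA5, LRRN1, ZBTB18, CNTN6 and SMARCA2. The remaining 5 were near or inside ANKRD10, OR52M1, ERC1, LRCH3 and TLR3.

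Close to 1 in 2 outer peaks lay inside a protein-coding gene. Inside a protein-coding gene span lay 47.3% of outer smoke peaks (44.3 to 50.4) and 42.8% of inner ones, and 49.6% of outer air peaks (46.8 to 52.4) and 43.2% of inner ones. Such spans cover 51.4% of the outer and 42.7% of the inner bases. The outer smoke share thus lay under the covered share by more than its interval, and the outer air share did not. Within 1 kb of an end of a protein-coding gene lay 24 outer smoke peaks, 2.38% (1.61 to 3.52), against 1.54% of inner ones, and 33 outer air peaks, 2.72% (1.94 to 3.79), against 1.80% of inner ones. Counted per gene the order was the other way round. There were 0.961 gene-end peaks per 100 outer genes (0.616 to 1.43) and 2.08 per 100 inner genes (1.86 to 2.31) in smoke, and 1.32 (0.909 to 1.86) and 2.73 (2.49 to 3.00) in air.

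Genes near chromosome ends carried peaks less often than inner genes. A peak over the gene or within 1 kb was present at 262 of 2498 outer protein-coding genes in smoke, 10.5% (9.35 to 11.8), against 26.9% of 16573 inner ones and 24.8% of both together. In air it was 335 genes, 13.4% (12.1 to 14.8), against 28.3% of inner ones and 26.4% of both together. With either library 468 outer genes had a peak, 18.7%, against 38.8% of inner ones and 36.1% of both together. Outer genes are shorter, with a median span of 15.3 kb against 26.6 kb. Within a length class they had a peak in either library less often, 10.2% (8.28 to 12.5) against 20.96% of genes of 10 to 30 kb, and 72.3% (65.3 to 78.4) against 86.0% of genes of 100 to 300 kb. Of outer genes of 300 kb or more 41 of 43 had a peak, 95.3%, against 99.0% of inner ones.

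FASN, the fatty acid synthase gene named in the series title, lies 1.17 Mb from the end of 17q and had no peak in either list. Its nearest peaks lay 271 kb away in smoke and 355 kb away in air. TERT, 1.27 Mb from the end of 5p, had none either, and its nearest peaks lay 158 kb away in smoke and 233 kb away in air. FGFR3, a receptor tyrosine kinase gene often mutated in bladder tumours, lies 1.80 Mb from the end of 4p, with the nearest peaks at 209 kb in smoke and 185 kb in air. AHRR, whose product represses the aryl hydrocarbon receptor, lies 0.380 Mb from the end of 5p, with the nearest peaks at 178 kb in smoke and 57.6 kb in air. The 4 genes thus had no listed peak in either library, and acetylation there below the calling threshold was not measured. Most outer protein-coding genes had none either, as 18.7% of 2498 had a peak in either list. The share was 10.2% at 10 to 30 kb, the length class of FASN and FGFR3. It was 33.2% at 30 to 100 kb, the class of TERT, and 72.3% at 100 to 300 kb, that of AHRR. Distances from other outer genes to their nearest peaks are not given here.

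Long genes held the most outer peaks. CSMD1, a large complement-regulatory gene of 2060 kb on 8p, had 23 smoke and 22 air peaks over its span or within 1 kb. CNTN4 had 14 and 19, and DLGAP1, a gene of a postsynaptic scaffold protein on 18p, 14 and 11. TMEM132D on 12q had 6 smoke and 17 air peaks, and SMYD3, a lysine methyltransferase gene on 1q, 4 and 15. DLGAP2 on 8p had 7 and 8, and NTM, a neural adhesion gene on 11q, 10 and 5. Per length RFX3 and CNTN6 stood highest among the 10 genes with the most peaks. They had 5.20 and 4.82 peaks per 100 kb of span for both libraries together, with peaks within 1 kb of the span included. NTM and DLGAP2 stood lowest among the 10, at 1.55 and 1.55. ERC1, a scaffold gene on 12p, had 12 smoke peaks and 1 air peak, the most uneven split seen among genes with over 10 outer peaks, and was picked out after its values were seen.

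Gene lists are given beside the share of outer protein-coding genes with a peak in either library, which was 18.7% in all and depended on gene length. It was 3.37% (2.38 to 4.74) under 10 kb, 10.2% at 10 to 30 kb, 33.2% (29.4 to 37.1) at 30 to 100 kb, 72.3% at 100 to 300 kb and 95.3% (84.5 to 98.7) from 300 kb. Peaks of both libraries were present at 5.16% of the 2498 outer protein-coding genes, of smoke only at 5.32% and of air only at 8.25%. Spans within a list differ widely, so the length class of its median does not match all its genes. Of 33 outer genes in the list of long and cell adhesion genes, 26 had a peak, 18 with both libraries, 1 with smoke only and 7 with air only. This is 78.8% of a list whose median span was 413 kb, no more than outer genes of such length had. Those in both were CHL1, CNTN6, CNTN4, SDK1, OPCML, NTM, PTPRN2, CSMD1, DLGAP1, DLGAP2, TBC1D22A, RPS6KA2, ITPR1, COL4A1, COL4A2, ADAMTS17, SMOC2 and TMEM132D. ADARB2, an inactive relative of RNA-editing enzymes, had 3 smoke peaks and 0 air peaks. GMDS, the first enzyme of GDP-fucose synthesis, had 0 smoke and 3 air peaks, and DIP2C, TMEM132C, COL23A1, CDH4, MCF2L and ATP11A also had peaks in air alone. Among 22 neuronal genes, with a median span of 64.5 kb, 8 or 36.4% had a peak, 4 with both libraries, 0 with smoke only and 4 with air only. MYT1L, a transcription factor gene of neurons, had 2 smoke and 8 air peaks, and CACNA1C, SNTG2 and RBFOX3 had peaks in both. RIMBP2, CACNA1B, KIF1A and JPH3 had them in air alone.

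Of 28 chromatin regulators 11 had a peak, 6 with both libraries, 4 with smoke only and 1 with air only. NSD1, a histone H3 methyltransferase gene on 5q, had 6 smoke and 5 air peaks, and HDAC4, a deacetylase gene on 2q, 4 and 1. SMCHD1 had 3 and 1, and CREBBP, which encodes the acetyltransferase CBP, and ZMYND11, a histone reader gene, 1 and 1 each. SMYD3 completed the 6. EP400, KDM5A, SMARCA2 and ANKRD11 had peaks in smoke alone and PRMT8 in air alone. The 11 genes are 39.3% of the list, whose median span was 81.9 kb. All 11 are longer than this, from 109 kb for KDM5A to 758 kb for SMYD3. A peak was present at 72.3% of all outer genes of 100 to 300 kb and at 95.3% of longer ones. Telomere maintenance and repair had 1 of 14 genes in both, which was SMCHD1, 1 in air alone, PARP11, and 12 without a peak. Genes with a peak were 14.3% of this list, whose median span was 37.0 kb.

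Among 29 genes of bladder cancer and growth factor signalling, 7 had a peak, 3 with both libraries, 2 with smoke only and 2 with air only. The 7 genes are 24.1% of the list, whose median span was 41.9 kb. IGF1R, the receptor for insulin-like growth factor, had 4 smoke and 5 air peaks, FAT1 had 2 and 1, and CREBBP had 1 and 1. TRAF3, an adaptor gene of NF-κB signalling, had 2 smoke peaks and 0 air peaks. TP73, a relative of p53, and YES1, a Src-family kinase gene, had 1 air peak each. In the list of smoke and xenobiotic response 1 of 14 outer genes had a peak, MGMT on 10q, whose product removes alkyl groups from guanine, with 2 smoke and 2 air peaks. This is 7.14% of a list whose median span was 20.9 kb.

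Lipid metabolism had 26 outer genes, of which 6 had a peak, 2 with both libraries, 0 with smoke only and 4 with air only. The 6 genes are 23.1% of the list, whose median span was 22.7 kb. LPIN2, a phosphatidate phosphatase gene, had 2 smoke peaks and 1 air peak. ACAP2 had 1 and 5, but its product is an activator of Arf GTPases and no lipid enzyme. AGPAT3, an acyltransferase gene of phospholipid synthesis, IDI2, LMF1 and APOD had 1 air peak each. The list for the imprinted region of 11p15.5 had 14 outer genes, and whether each is imprinted was not checked. Of these KCNQ1, a potassium channel gene, had 2 smoke and 2 air peaks, and NAP1L4 had 2 and 0. KCNQ1OT1, the noncoding RNA that runs antisense within KCNQ1, had 1 and 1, which lie over KCNQ1 too, and 11 genes had none, H19 and IGF2 among them. The 3 genes of this region with a peak are 21.4% of their list, whose median span was 14.2 kb.

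Of 30 blood and immune genes 9 had a peak, 1 with both libraries, 5 with smoke only and 3 with air only. The median span of this list was 20.5 kb, and 10.2% of outer protein-coding genes of 10 to 30 kb had a peak. Peaks of smoke only were present at 5.32% of all 2498 outer protein-coding genes, and the split within the list was not tested. TLR3, a sensor of double-stranded RNA, had 1 smoke and 1 air peak. IRF8, CCR6, LILRB2 and TRAF3 had peaks in smoke alone and IL5RA, SIRPG and LILRB1 in air alone. Of 29 developmental transcription factor genes 5 had a peak, 1 with both libraries, 2 with smoke only and 2 with air only. EBF3 had 1 and 1, TGIF1 on 18p had 3 smoke and 0 air peaks, MEF2A had 1 and 0, ZNF516 had 0 and 3, and DMRT1 had 0 and 2. Subtelomeric duplicated families had 1 of 28 with a peak, the noncoding gene FAM41C on 1p, with 1 smoke and 1 air peak. That is 3.57% of a list whose median span was 8.36 kb, near the 3.37% of outer protein-coding genes under 10 kb, and 10 of its 28 genes are noncoding or pseudogenes, which that share does not cover. How reads that map to several places were handled is not stated, and its part in the count was not tested.

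**Figure D5:**
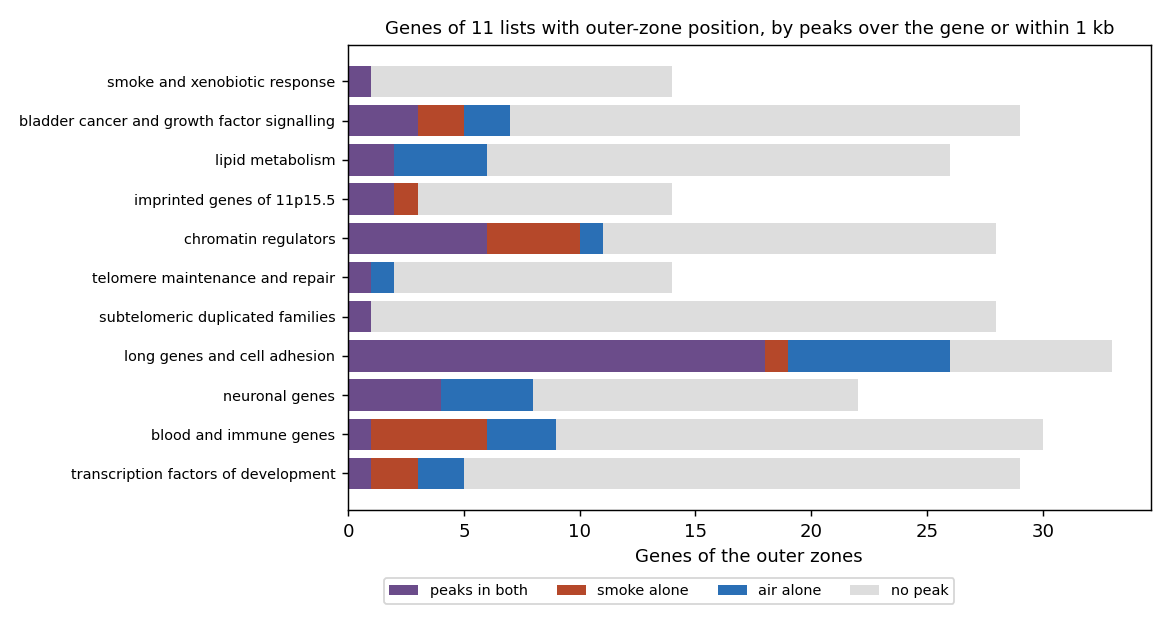
Number of genes in the outer zones (x) in each of 11 lists (y), divided by colour into those with peaks of both libraries, of smoke only, of air only and of neither. Long and cell adhesion genes have 26 of 33 genes with a peak, and subtelomeric duplicated families have 1 of 28.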

How the data were processed

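Peak lists of 1 smoke and 1 air library of UM-UC-3 cells were used, each in the 10-column narrowPeak layout. The submitters' processing notes name the aligner Bowtie2, the peak callers MACS and MACS2 and the builds hg38 and mm10. For their settings, their versions and the filter behind the lists the sources used here give no entry. Each deposited score is 10 times the −log10 p, rounded down. The deposited fold, −log10 p and −log10 q are the authors' peak caller's values and rank and filter peaks inside 1 list at a time. What the deposited fold ratio was taken against is read from the narrowPeak layout, as enrichment over the caller's background. Depth is unknown.

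Peaks were placed by summit. Chromosome lengths and centromere borders of hg38 were entered as constants of the assembly. Peaks and genes lay within these lengths. Genes, promoters and microRNAs came from RefSeq GRCh38.p14. Genes were placed by the middle of their span and counted with peaks over the span or within 1 kb. Inner parts ran from 5 Mb to the centromere, with assembly gaps kept in the length. Bins of 1 Mb were counted from the chromosome end.

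Members, 11 gene lists (297 entries, 3 unmatched, 258 distinct genes in the outer zones) and comparisons were chosen with earlier results of these data known. Named were the 10 peaks of highest −log10 q per library, the 10 shared pairs with the highest lower −log10 q, the 10 genes with most peaks, list genes with a peak, FASN, TERT, FGFR3 and AHRR, the 4 highest and 4 lowest arms per library, and at most 6 promoters; further names were added after their values were seen, and a few that met the rule are not reported here. The density ratio was tested on simulated data. Python 3.11.15, pandas 2.3.3 and scipy 1.17.1 were used.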

Additional observations from a re-analysis of the deposited data

Results flagged for a closer look

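On 4 arms the outer zone was sparser than the inner part in smoke and denser in air. The ratio of outer to inner density was 0.81 in smoke and 1.08 in air on 10p, 0.887 and 1.17 on 15q, 0.806 and 1.10 on 18q, and 0.80 and 1.17 on 19q. The difference between the libraries was not tested, and the interval of each of these 8 ratios includes 1.

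Peaks were also listed outside the 39 zones and arms. The short arms of chromosomes 13, 14, 15, 21 and 22, which carry ribosomal DNA and satellite repeats, held 19 smoke and 16 air peaks, and 13 smoke and 11 air peaks of these lay on chromosome 21. The outer 5 Mb at both ends of chromosome X held 48 smoke and 45 air peaks.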

How the results depend on the processing

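The lower outer density held in both libraries under every alternative tried. Arms with a lower outer density numbered 28 to 34 in smoke, beside 33, and 25 to 34 in air, beside 29. The lowest counts came without chromosomes 13, 14, 15, 21 and 22, which leaves fewer arms. Placing peaks by their middle gave the same values as the summit. The ratio of outer to inner density moved beyond its counting interval under 5 of 11 alternatives. It was 0.527 in smoke and 0.544 in air for outer zones of 2 Mb, 0.717 and 0.744 for 10 Mb, 0.708 and 0.749 against the next 5 Mb alone, 0.460 and 0.602 at a fold of at least 5, and 0.669 and 0.719 in classes of like gene count, the last chosen after the data were examined. The share of the list in the outer zones was 1.45% in smoke and 1.5% in air for 2 Mb, 10.1% and 10.5% for 10 Mb, and 3.28% and 4.22% at a fold of at least 5. The last values have few peaks behind them, 45 in smoke and 113 in air. Of outer peaks 17.1% in smoke and 25.3% in air had a −log10 q of at least 2. Partners in the other library were found for 0.298% of smoke and 0.247% of air peaks with an overlap of at least 50% of both, and for 3.17% and 2.72% within 1 kb. Gene ends lay within 3 kb for 8.43% of smoke and 8.07% of air peaks, and within 1 kb of any annotated gene for 7.64% and 8.56%. Inside any annotated gene lay 61.0% and 64.7%. Each of these widens or narrows its definition by construction. No leave-one-out analysis exists with 1 library per group. No paired analysis was possible because each group has 1 library and no test was run. Unknown depth limits what the absence of a listed peak shows.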
